A study of Mus musculus with 26 samples.

Results

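Gonads of XY mouse embryos at E13.5 (embryonic day) that carry the Fgf9 Δ306 deletion were compared with wild-type (WT) XY gonads of the same stage, in 3 libraries per group. These 6 libraries were chosen by their columns in the count table that holds WT and Δ306 only, out of 26 samples in the series. The series set WT beside deletions at the Fgf9 locus and a Meis1 knockout, to study regulatory hubs of sex determination. All 6 libraries are poly(A) RNA from gonads dissected free of the mesonephros, the transient kidney that lies against the gonad. Neither group carries a transgene, Cre or treatment in the labels. The boundaries and zygosity of Δ306, the strain, and whether gonads were pooled are not given in the sources used here, and nothing states that the libraries of a group came from separate animals. The p-values below therefore measure the spread between these libraries, which may be technical.

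Fgf9 encodes a secreted growth factor of the fibroblast growth factor family. It is made by the supporting cells of the early XY gonad, acts through FGF receptors and the ERK kinase cascade, and opposes WNT4 and RSPO1, the signals that favour ovarian development. In a testis at this stage, Sertoli cells form cords that lie on a basement membrane, secrete desert hedgehog and pattern an interstitium of progenitors, fetal Leydig cells and vessels. The lists used below hold the ligands, receptors, targets and products of these programmes, beyond the marker genes by which the gonad is usually typed. They were chosen with earlier results of these data known, so their counts describe a programme and do not test it. A list is described by how many of its members were called higher or lower and by the median log2 fold change (Δ306 against WT), beside the same over all genes tested.

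Depth was 35.5 to 48.5 M counts per library in WT and 19.2 to 27.8 M in Δ306. Levels are in CPM, counts normalised to library size and scaled for composition. Of the genes in the table, 16470 passed the filter on low counts. At an adjusted p under 0.05 (edgeR's quasi-likelihood test, Benjamini-Hochberg over all genes tested), 3101 genes were called. That is 18.8% of the genes tested, with 8.98% called higher and 9.85% called lower in Δ306. Over all tested genes the log2 fold changes had a median of 0.04. With no composition factor the split of calls was 1991 higher to 1292 lower, against 1479 to 1622, and the median of all genes was 0.12. Levels of a gene are called not overlapping where all libraries of one group lie above all of the other. That held at 21.7% of genes tested in the direction of higher levels in Δ306 and at 20.4% in the direction of lower levels.

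Some libraries stood apart in marker levels. The summed level of 14 germ-cell genes was 70.2 CPM in WT 1, against 878.1 and 1211 CPM in WT 2 and 3 and 626.6, 1373 and 1224 CPM in Δ306. The summed level of Y-linked genes was 2.001 CPM in the library labelled Δ306 3, against 37.54 and 22.18 CPM in Δ306 1 and 2 and 37.35, 70.01 and 129.2 CPM in WT. Sry, the testis-determining gene of the Y chromosome, was read at 4.20, 2.30 and 1.54 CPM in Δ306, above 0.222, 0.261 and 0.259 CPM in WT (log2 fold change 3.41 ± 0.48, adjusted p = 0.00524). Uty, another Y-linked gene, was at 18.8, 15.9 and 24.1 CPM in WT and 3.495, 1.74 and 0.125 CPM in Δ306, and its call (adjusted p = 0.0263) was lost without WT 2, WT 3 or Δ306 2. Xist, the RNA of the inactive X chromosome, had 3 to 20 counts in each library and was not tested. Results that rest on WT 1 or the library labelled Δ306 3 are given below with and without them.

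**Figure D1:**
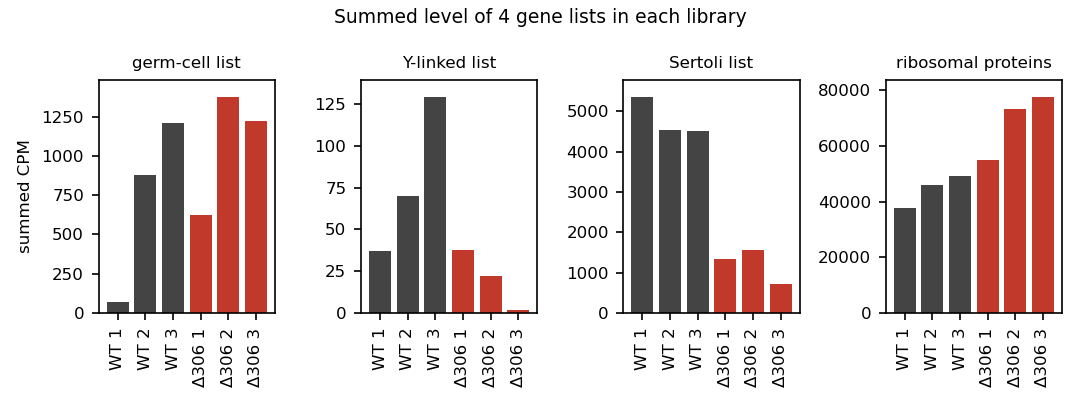
Summed level in CPM (vertical axis of each panel, from 0) of the germ-cell, Y-linked, Sertoli and ribosomal protein lists in each of the 3 WT (grey) and 3 Δ306 (red) libraries. WT 1 is low for germ-cell genes and the library labelled Δ306 3 for Y-linked genes, while the Sertoli sums of the groups, 5345, 4538 and 4497 CPM against 1342, 1559 and 724.4 CPM, do not overlap.

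Leaving out a single library changed how many genes were called. The count was 3683 without WT 1, 1110 without WT 2, 1743 without WT 3, 3419 without Δ306 1, 1366 without Δ306 2 and 1166 without the library labelled Δ306 3. In all 6 of these fits 942 of the 3101 genes were called, and no called gene changed sign. A gene is described as called in every such fit where it is among the 942. With both WT 1 and Δ306 3 left out, a choice made after the data had been seen, 1422 genes were called. Of the genes described below as called, Cdh5, Cdkn1a, Col6a1, Egr1, Esr2, Fgfr1, H19, Lgr5, Mmp2, Nid1, Notch3, Npnt, Sycp3, Tcf21 and Upk3b were not called in that fit of 4 libraries, with adjusted p from 0.0503 (Mmp2) to 0.159 (H19).

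Fgf9 itself (chromosome 14, 58070547 to 58112720, plus strand, GRCm38) was at 10.9, 10.1 and 10.5 CPM in WT and 3.34, 2.55 and 2.71 CPM in Δ306. All Δ306 libraries lay below all WT libraries. The log2 fold change, given here and below ± its standard error (SE), was -1.87 ± 0.20 at an adjusted p of 0.00213, and the gene was called in every fit without 1 library. Of 17 listed FGF ligands and receptors 14 were tested, and 6 fell and 1 rose, with a median of -0.70. Fgfrl1, a receptor that lacks the kinase domain, fell (-0.86 ± 0.15, adjusted p = 0.011) and was called in every fit without 1 library. Fgfr1, a signalling receptor, fell (-0.68 ± 0.12, adjusted p = 0.00987), a call lost without Δ306 3. Fgfr2, the receptor reported to act in Sertoli precursors, was higher (0.84 ± 0.16, adjusted p = 0.0144), a call lost without WT 2, WT 3, Δ306 2 or Δ306 3. The count of lower members was 3 without WT 3, Δ306 3 or both WT 1 and Δ306 3.

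Genes that ERK signalling switches on, many of which then damp it, were often lower too. Of 22 members, all tested, 10 were called lower and 1 higher, with a median of -0.52. Spry1, an intracellular inhibitor of receptor tyrosine kinase signalling, was at 49.0, 44.5 and 51.8 CPM in WT and 23.45, 17.4 and 20.8 CPM in Δ306. The groups did not overlap (-1.24 ± 0.14, adjusted p = 0.00283). Spry4 (-1.455 ± 0.195, adjusted p = 0.00463), of the same family, and the ERK phosphatase genes Dusp6 (-1.2 ± 0.16, adjusted p = 0.00436) and Dusp4 (-1.705 ± 0.28, adjusted p = 0.00917) fell too. Egr1, an immediate early transcription factor, fell (-0.96 ± 0.16, adjusted p = 0.00994). Dusp5, another ERK phosphatase, moved the other way, at 7.30, 12.2 and 11.9 CPM in WT and 23.5, 33.8 and 43.02 CPM in Δ306 (1.67 ± 0.28, adjusted p = 0.00979). All of these were called in every fit without 1 library, whereas Etv5, an ETS factor induced by FGF, overlapped between the groups (78.7, 165 and 173 CPM in WT and 53.1, 79.6 and 44.1 CPM in Δ306) and lost its call without any single library but WT 1. The count of lower members was 5 without WT 2, WT 3, Δ306 2 or Δ306 3.

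Basement membrane genes were lower in Δ306. Of 25 members, all tested, 11 fell and 1 rose, with a median of -0.88, and the 11 that fell were called in every fit without 1 library. In bulk RNA, fewer cells of a type and less RNA per cell cannot be told apart. Col4a1 and Col4a2, which encode the chains of the main type IV collagen network, are neighbours transcribed away from each other on chromosome 8 (11198423 to 11312826, minus strand, and 11312805 to 11449287, plus strand). Their starts lie 21 bases apart, so they share a promoter region. The RefSeq windows from 250 bases before to 50 after each start (GRCm38.p6) are shown because this shared stretch joins the pair that fell together. Col4a2 is chr8:11312555-11312854 on the plus strand and Col4a1 is chr8:11312777-11313076 on the minus strand, each 5′ to 3′ on its own strand. Capitals mark the 78 bases that both windows cover.
Col4a2: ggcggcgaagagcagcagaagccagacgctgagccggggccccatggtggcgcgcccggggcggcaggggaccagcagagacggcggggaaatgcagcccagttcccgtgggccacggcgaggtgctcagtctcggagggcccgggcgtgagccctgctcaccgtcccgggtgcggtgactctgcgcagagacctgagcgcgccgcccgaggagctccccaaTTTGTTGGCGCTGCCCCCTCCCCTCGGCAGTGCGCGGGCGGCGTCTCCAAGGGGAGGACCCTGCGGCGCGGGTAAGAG
Col4a1: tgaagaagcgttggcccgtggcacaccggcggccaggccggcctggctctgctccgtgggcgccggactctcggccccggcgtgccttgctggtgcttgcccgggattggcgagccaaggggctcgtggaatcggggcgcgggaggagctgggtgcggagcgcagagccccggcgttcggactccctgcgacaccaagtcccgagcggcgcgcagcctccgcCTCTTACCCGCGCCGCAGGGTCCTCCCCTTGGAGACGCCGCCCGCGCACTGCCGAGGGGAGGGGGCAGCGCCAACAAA

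Col4a1 was at 3149, 2895 and 2520.0 CPM in WT and 764, 582 and 600.5 CPM in Δ306. Col4a2 was at 1717, 1594 and 1429 CPM in WT and 430.3, 308 and 329 CPM in Δ306. In both genes every Δ306 library lay far below every WT library, and the log2 fold changes were close to each other, -2.14 ± 0.18 (adjusted p = 0.000998) and -2.15 ± 0.17 (adjusted p = 0.000963). The gene models overlap at their starts, and whether strand was used in counting is not given in the sources used here.

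Of the second type IV network 2 chains fell. Col4a4 was at 30.7, 24.9 and 34.8 CPM in WT and 6.33, 6.07 and 4.835 CPM in Δ306 (-2.39 ± 0.19, adjusted p = 0.000864). Col4a3 was at 6.58, 5.50 and 7.12 CPM in WT and 1.72, 1.67 and 0.875 CPM in Δ306 (-2.17 ± 0.32, adjusted p = 0.00636). Col4a5, the third chain of that network, was not called (-0.24 ± 0.19, adjusted p = 0.413).

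Among the laminins, Lamb1, a beta chain, was at 673, 593 and 540.3 CPM in WT and 344, 294 and 331 CPM in Δ306 (-0.90 ± 0.13, adjusted p = 0.00571). Lamc3, a gamma chain, was at 47.7, 35.5 and 36.5 CPM in WT and 10.1, 7.81 and 5.09 CPM in Δ306 (-2.38 ± 0.26, adjusted p = 0.0025). Lamc1, the common gamma chain, was at 434, 379 and 327 CPM in WT and 381, 288 and 322 CPM in Δ306 and overlapped (-0.20 ± 0.15, adjusted p = 0.386). Lamb1 and Lamc3 thus fell with no overlap of the groups, and Lamc1 did not pass the test. Nid1, which links laminin to collagen IV, was at 714, 574 and 515 CPM in WT and 278, 149.8 and 192 CPM in Δ306 (-1.54 ± 0.24, adjusted p = 0.00779), with no overlap. Col18a1, whose product carries the endostatin fragment, was at 1911, 2088 and 1679 CPM in WT and 839, 721 and 484 CPM in Δ306 (-1.47 ± 0.22, adjusted p = 0.00669), and Col15a1, a related collagen, fell (-1.93 ± 0.26, adjusted p = 0.00503). Hspg2, the heparan sulphate proteoglycan perlecan, was at 945, 737 and 409 CPM in WT and 489.9, 296 and 349 CPM in Δ306 and missed the threshold (adjusted p = 0.096), although it passed without WT 3 (adjusted p = 0.0342) and by DESeq2. Npnt, a ligand of integrin alpha 8, was the member that rose, at 27.35, 12.3 and 28.5 CPM in WT and 66.6, 71.5 and 98.7 CPM in Δ306 (1.80 ± 0.33, adjusted p = 0.0121). With both WT 1 and Δ306 3 left out, 10 members were called lower and Npnt was not called.

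Genes of the interstitial matrix gave a less even picture. Of 28 members, all tested, 9 fell and 2 rose, with a median of -0.88. Sparc, a collagen-binding glycoprotein, was at 2408, 2431 and 2302 CPM in WT and 1278, 886 and 857 CPM in Δ306 (-1.24 ± 0.19, adjusted p = 0.007). Bgn, the small proteoglycan biglycan (-1.67 ± 0.24, adjusted p = 0.00556), Eln, elastin (-1.078 ± 0.18, adjusted p = 0.00903), and Col6a1, of the beaded-filament collagen VI (-1.16 ± 0.21, adjusted p = 0.0125), fell and were called in every fit without 1 library. The fibrillar collagen genes varied more between libraries. Col1a1 was at 1828, 822 and 911.5 CPM in WT and 1374, 286 and 529 CPM in Δ306 and overlapped (-0.70 ± 0.57, adjusted p = 0.422), and Col3a1 was at 2883, 1870.0 and 1992 CPM in WT and 1591, 549 and 872 CPM in Δ306 (-1.16 ± 0.39, adjusted p = 0.0753), not called in the full fit but called without Δ306 1 (adjusted p = 0.0164) and by DESeq2. Col12a1, which associates with collagen fibrils, rose, at 77.8, 38.4 and 33.1 CPM in WT and 266, 140.5 and 221 CPM in Δ306 (2.07 ± 0.37, adjusted p = 0.0118), a call lost without WT 2. The count of lower members was 5 without WT 2, 18 without Δ306 1, 5 without Δ306 2, 4 without Δ306 3 and 3 without both WT 1 and Δ306 3. The higher count was 0 without WT 2 and 1 without WT 3, Δ306 3 or both WT 1 and Δ306 3.

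Of 29 listed proteases and inhibitors of the matrix, 28 were tested, and 11 fell and 3 rose, with a median of -0.54. Mmp2, a gelatinase, was at 596, 477 and 503 CPM in WT and 215, 107 and 169 CPM in Δ306 (-1.685 ± 0.25, adjusted p = 0.00645). Adamts2, which trims procollagens, was at 181, 147 and 142 CPM in WT and 56.3, 53.5 and 57.03 CPM in Δ306 (-1.49 ± 0.12, adjusted p = 0.000926). Adamts19, a protease of the same family, was at 17.97, 12.1 and 14.35 CPM in WT and 59.7, 93.6 and 94.75 CPM in Δ306 (2.48 ± 0.23, adjusted p = 0.0014). The groups did not overlap in any of these genes, and the named members of the ADAMTS family moved in opposite directions. The count of lower members was 7 without WT 2 or without both WT 1 and Δ306 3.

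**Figure D2:**
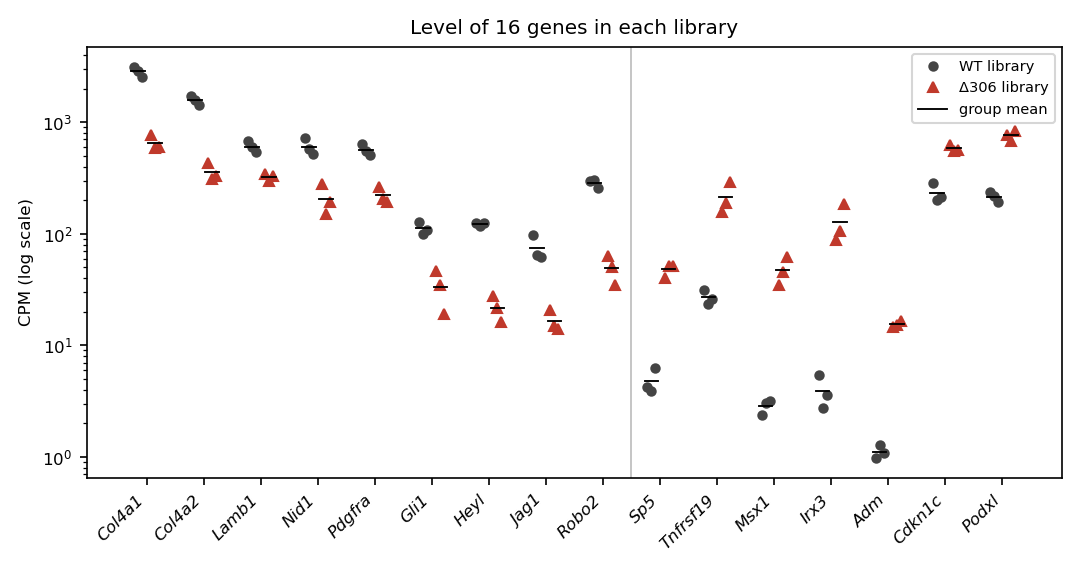
Level in CPM (log scale) of 16 genes in each WT library (grey circles) and Δ306 library (red triangles), with the group mean as a line; genes left of the vertical line are lower in Δ306 and those right of it higher. In each of the 16 genes the 3 Δ306 libraries lie on one side of all 3 WT libraries (Adm encodes the vasodilator peptide adrenomedullin).

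Most interstitial progenitor genes fell. Of 13 members, all tested, 10 were called lower, with a median of -1.35, and 7 of the 10 were called in every fit without 1 library. Pdgfra, the receptor that marks these progenitors, was at 632, 549.6 and 509.8 CPM in WT and 265, 205 and 193 CPM in Δ306 (-1.35 ± 0.16, adjusted p = 0.0031). Wnt5a, a ligand of the non-canonical WNT pathway, was at 396, 319 and 304 CPM in WT and 119, 93.9 and 114 CPM in Δ306 (-1.64 ± 0.15, adjusted p = 0.00123). Each Δ306 library was below each WT library in these genes, and Tcf21, a mesenchymal transcription factor, fell (-1.415 ± 0.22, adjusted p = 0.00692). Lhx9, which the list shares with the gonadal surface, was at 162, 199 and 152 CPM in WT and 204, 249 and 252 CPM in Δ306 and missed the threshold (adjusted p = 0.061), although it was called higher without Δ306 1 (adjusted p = 0.0449) and by DESeq2. With WT 1 and Δ306 3 both left out, 6 members were called lower. Gli1 and Ptch1 of this list are also in the hedgehog list, and Pdgfra and Pdgfrb in that of PDGF and VEGF. Wnt5a is also in the WNT list, and Nr2f1 and Nr2f2 are in that of steroid receptors. The counts of these lists are therefore not separate.

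Of 14 smooth muscle and pericyte genes, all tested, 5 fell and 1 rose, with a median of -0.76. Acta2, smooth muscle actin, was at 177, 167 and 220.2 CPM in WT and 57.04, 39.9 and 47.65 CPM in Δ306 (-1.965 ± 0.17, adjusted p = 0.00113). Cspg4, the pericyte proteoglycan NG2, fell (-1.795 ± 0.27, adjusted p = 0.00665) and so did Smtn, smoothelin (-1.655 ± 0.17, adjusted p = 0.00199). Myl9, a myosin light chain, rose, at 74.6, 80.05 and 79.8 CPM in WT and 153, 145 and 186 CPM in Δ306 (1.04 ± 0.12, adjusted p = 0.00281). All 6 calls held in every fit without 1 library.

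Endothelial genes lay lower, with few calls. Of 20 members, all tested, 19 had a log2 fold change below 0 and 5 were called lower, with a median of -0.63. Cdh5, the endothelial cadherin, was at 234, 199 and 159 CPM in WT and 118, 71.8 and 91.75 CPM in Δ306 (-1.07 ± 0.21, adjusted p = 0.0163), a call lost without WT 2 or Δ306 3. Pecam1, a surface protein of all endothelium, was at 118, 133 and 133 CPM in WT and 106, 99.9 and 101.5 CPM in Δ306 and did not pass the threshold (-0.32 ± 0.09, adjusted p = 0.0524), although it did without WT 1 (adjusted p = 0.0201). The count of called members was 0 without WT 2, 8 without Δ306 1, 1 without Δ306 2, and 0 without Δ306 3 or without both WT 1 and Δ306 3. Of 17 macrophage genes, all tested, 0 were called by edgeR or by DESeq2 and 0 had an unadjusted p under 0.05, with a median of 0.15.

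Several signals between cord and interstitium were read at lower levels. Of 16 listed hedgehog genes 15 were tested, and 6 fell, with a median of -0.29. Dhh, the ligand secreted by Sertoli cells, was at 103, 108 and 98.95 CPM in WT and 25.6, 27.4 and 1.79 CPM in Δ306 and missed the threshold (-2.50 ± 0.77, adjusted p = 0.0618), with the library labelled Δ306 3 far below the others. Without that library Dhh was called lower, with a log2 fold change of -1.97 (adjusted p = 0.00225). Hhip, which binds the ligand and is itself a target of the pathway, was at 150.3, 125 and 91.8 CPM in WT and 20.1, 19.11 and 6.63 CPM in Δ306 (-3.0 ± 0.42, adjusted p = 0.0052). Ptch1, the receptor and a target, was at 360.4, 349 and 303 CPM in WT and 147, 134 and 76.8 CPM in Δ306 (-1.5 ± 0.24, adjusted p = 0.00767). Gli1, the transcription factor used as the readout of hedgehog signalling, was at 127, 99.1 and 109 CPM in WT and 46.8, 34.7 and 18.97 CPM in Δ306 (-1.74 ± 0.30, adjusted p = 0.0108). In these 3 target genes no Δ306 library reached the lowest WT library, and the calls held in every fit without 1 library, as did that of Gli2 (-1.57 ± 0.21, adjusted p = 0.00489). Smo, the transducer of the signal, was at 291, 239 and 222 CPM in WT and 243.5, 201 and 209.6 CPM in Δ306, overlapped and was not called (-0.20 ± 0.14, adjusted p = 0.338). Gli3, a factor that acts mainly as a repressor, was not called either (-0.10 ± 0.12, adjusted p = 0.601). Without WT 1, 1 member was called higher.

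Of 17 Notch genes, all tested, 5 fell, with a median of -0.66. Jag1, a ligand, was at 97.1, 63.85 and 61.6 CPM in WT and 20.8, 15 and 13.9 CPM in Δ306 (-2.165 ± 0.24, adjusted p = 0.00235). Heyl, a target transcription factor, was at 126, 117.5 and 125 CPM in WT and 27.5, 21.5 and 16.05 CPM in Δ306 (-2.50 ± 0.19, adjusted p = 0.000822). Notch3, the receptor of mural cells, fell (-1.53 ± 0.25, adjusted p = 0.00828). These 3 were called in every fit without 1 library and did not overlap, while the count of called members was 3 without WT 2, 8 without Δ306 1, 3 without Δ306 2 or Δ306 3 and 2 without both WT 1 and Δ306 3, and 1 member was called higher without Δ306 1. Of 18 PDGF and VEGF genes, all tested, 4 fell, with a median of -0.51. Pdgfb, a ligand made by endothelium, was at 29.7, 31.4 and 27.6 CPM in WT and 15.9, 14.55 and 12.9 CPM in Δ306 (-1.035 ± 0.13, adjusted p = 0.00389), and Pdgfra is given above. Vegfa, the endothelial growth factor, was not called (0.03 ± 0.19, adjusted p = 0.92). The count was 9 without Δ306 1 and 2 without Δ306 3 or both WT 1 and Δ306 3.

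**Figure D3:**
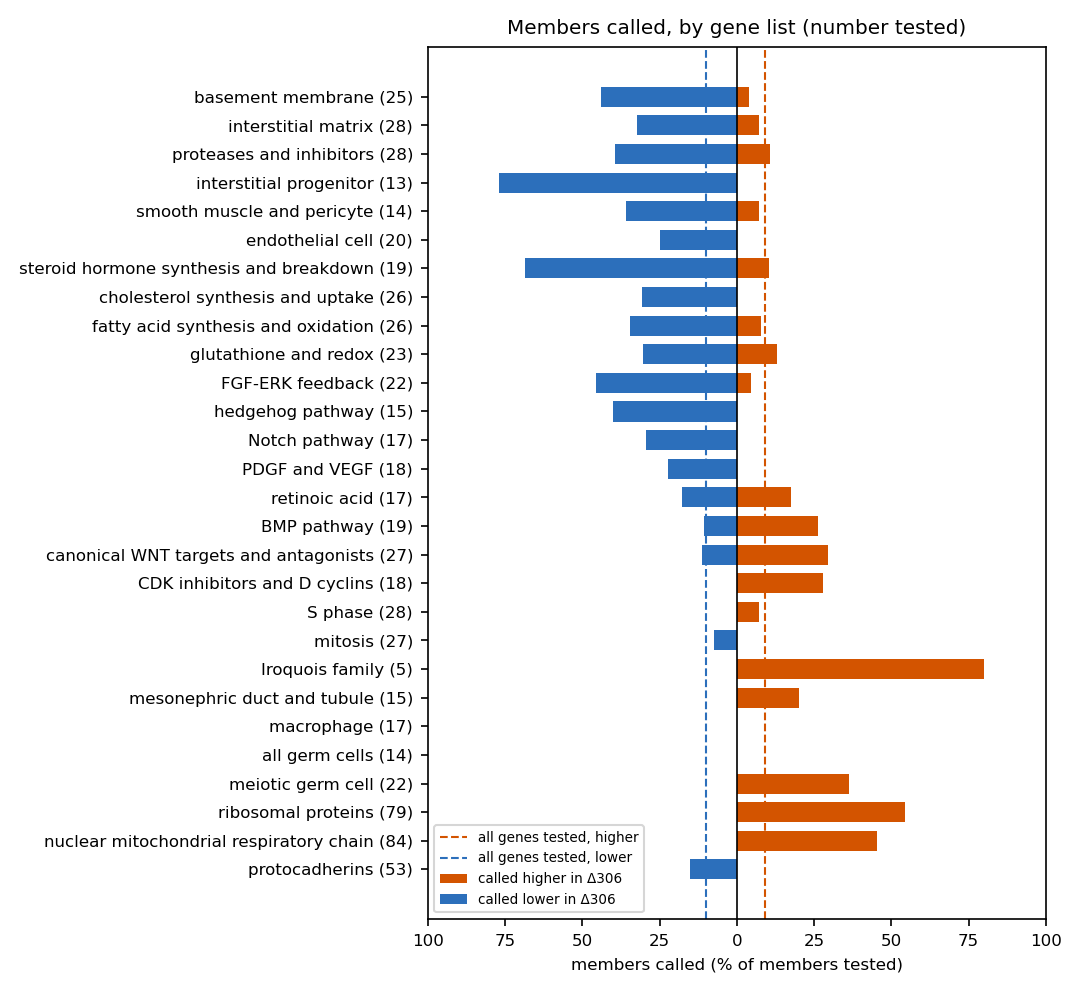
Share of tested members called higher (orange, to the right) or lower (blue, to the left) in Δ306 against WT for 28 gene lists, with the number tested in brackets, and dashed lines at 8.98% and 9.85%, the shares of all genes tested. Interstitial progenitor, steroid hormone and FGF-ERK feedback genes extend furthest to the left, and Iroquois, ribosomal protein and respiratory chain genes furthest to the right.

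WNT targets and antagonists rose more often than they fell. Of 27 members, all tested, 8 were called higher and 3 lower, with a median of 0.69. Canonical WNT signals act through beta-catenin and TCF/LEF factors, which bind a short DNA motif. That motif was searched as CTTTGAT, with its reverse complement ATCAAAG, on both strands of the RefSeq promoter windows (250 bases before to 50 after the start, GRCm38.p6). It was present in 1160 of 27025 genes with a window (4.29%), in 2 of the 7 called-higher members with one (Sp5 and Tnfrsf19), in neither of the 2 called-lower members and in 1 of the 10 not called (Wnt11). The windows of the pair called higher are shown with the motif in capitals, Sp5 at chr2:70474673-70474972 on the plus strand and Tnfrsf19 at chr14:61037938-61038237 on the minus strand.
Sp5: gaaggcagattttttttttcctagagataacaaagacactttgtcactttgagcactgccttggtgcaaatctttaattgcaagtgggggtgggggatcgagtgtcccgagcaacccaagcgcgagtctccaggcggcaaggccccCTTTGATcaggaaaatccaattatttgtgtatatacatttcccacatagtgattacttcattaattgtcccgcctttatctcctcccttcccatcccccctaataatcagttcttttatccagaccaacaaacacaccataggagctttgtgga
Tnfrsf19: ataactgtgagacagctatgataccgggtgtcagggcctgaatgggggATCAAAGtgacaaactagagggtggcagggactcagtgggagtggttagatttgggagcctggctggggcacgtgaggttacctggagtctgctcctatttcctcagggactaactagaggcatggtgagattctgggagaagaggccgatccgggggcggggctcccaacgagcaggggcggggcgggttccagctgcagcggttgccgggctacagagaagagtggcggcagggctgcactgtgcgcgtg

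The motif lies upstream of the start in both windows. This start of Tnfrsf19 lies inside the gene, and another RefSeq start of Tnfrsf19 has a window without the motif. A match of these letters is a description and shows no binding.

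Sp5, a zinc finger factor that beta-catenin switches on directly, was at 4.19, 3.915 and 6.31 CPM in WT and 40.3, 51.3 and 51.9 CPM in Δ306 (3.32 ± 0.23, adjusted p = 0.000603). Tnfrsf19, a receptor of the TNF family and a WNT target, was at 31.4, 23.5 and 26.2 CPM in WT and 157, 188 and 291 CPM in Δ306 (2.97 ± 0.25, adjusted p = 0.00109). Axin2, the feedback inhibitor most used as a readout of canonical signalling, was at 43.5, 38.15 and 41.8 CPM in WT and 70.7, 86.4 and 108 CPM in Δ306 (1.105 ± 0.16, adjusted p = 0.00632). Every Δ306 library exceeded every WT library in these targets. Rnf43, a ubiquitin ligase that removes WNT receptors, was at 6.64, 2.07 and 3.26 CPM in WT and 18.7, 22.9 and 19.4 CPM in Δ306 (2.35 ± 0.41, adjusted p = 0.0106).

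Among the secreted members, Rspo1, which stabilises WNT receptors, was at 21.3, 17.3 and 16.7 CPM in WT and 60.6, 69.0 and 88.6 CPM in Δ306 (1.98 ± 0.18, adjusted p = 0.00122). Wnt9a, a ligand, was at 5.53, 5.26 and 3.98 CPM in WT and 22.6, 22.2 and 33.6 CPM in Δ306 (2.41 ± 0.23, adjusted p = 0.00148). These 6 genes were called higher in every fit without 1 library. Lgr5, a receptor of R-spondins and a target, was at 23.05, 27.1 and 23.2 CPM in WT and 37.4, 52.3 and 69.9 CPM in Δ306 (1.12 ± 0.22, adjusted p = 0.0163), a call lost without WT 2, WT 3 or Δ306 2. Lef1, a nuclear effector, overlapped and missed the threshold (adjusted p = 0.104), although it passed without Δ306 1 (adjusted p = 0.0246). Nkd1, a feedback inhibitor, was at 77.3, 36.95 and 37.04 CPM in WT and 89.15, 81.55 and 109 CPM in Δ306 and missed the threshold (adjusted p = 0.0795), although it passed without WT 1 (adjusted p = 0.00418) and by DESeq2. Wnt5a fell, as above, and of the 3 lower members it alone was called in every fit without 1 library. The lower count was 1 without WT 2, Δ306 2 or both WT 1 and Δ306 3 and 6 without Δ306 1. The higher count was 12 without WT 1, 6 without WT 2, WT 3 or Δ306 2, and 7 without Δ306 3. It was 9 without Δ306 1 or without both WT 1 and Δ306 3.

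Some BMP pathway genes rose. Of 20 listed genes 19 were tested, and 5 rose and 2 fell, with a median of 0.25. The falls are a share near the 9.85% of all genes. Msx1, a homeobox target of BMP signalling, was at 2.36, 3.02 and 3.14 CPM in WT and 34.85, 45.3 and 62.0 CPM in Δ306 (4.06 ± 0.26, adjusted p = 0.000603). Bmp2, a ligand made by ovarian supporting cells, was at 16.2, 16.01 and 14.5 CPM in WT and 42.4, 50.1 and 67.1 CPM in Δ306 (1.775 ± 0.18, adjusted p = 0.00188). The groups did not overlap in these genes, and each was called in every fit without 1 library. Id1, a target, was higher by 0.70 ± 0.13 (adjusted p = 0.0148), a call lost without WT 2, WT 3, Δ306 2 or Δ306 3. The count of higher members was 8 without WT 1 and 3 without WT 2 or WT 3.

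Of 18 activin and TGF-beta genes, all tested, 6 fell and 1 rose, with a median of -0.52. Inha, the alpha subunit that makes inhibins, was at 208, 132 and 146 CPM in WT and 22.5, 22.4 and 22.1 CPM in Δ306 (-2.86 ± 0.18, adjusted p = 0.000603). Inhba, the beta A subunit of activin A, was at 55.6, 47.9 and 50.2 CPM in WT and 7.80, 10.4 and 6.503 CPM in Δ306 (-2.63 ± 0.19, adjusted p = 0.000751). Inhbb, the beta B subunit, was at 291, 317 and 242 CPM in WT and 128, 118 and 71.6 CPM in Δ306 (-1.42 ± 0.23, adjusted p = 0.00781). All 3 subunit genes were thus lower in each Δ306 library than in any WT library, and Tgfbr3, the co-receptor betaglycan, which binds inhibin, fell too (-1.29 ± 0.19, adjusted p = 0.00621). The member that rose was Fst, the activin antagonist follistatin.

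**Figure D4:**
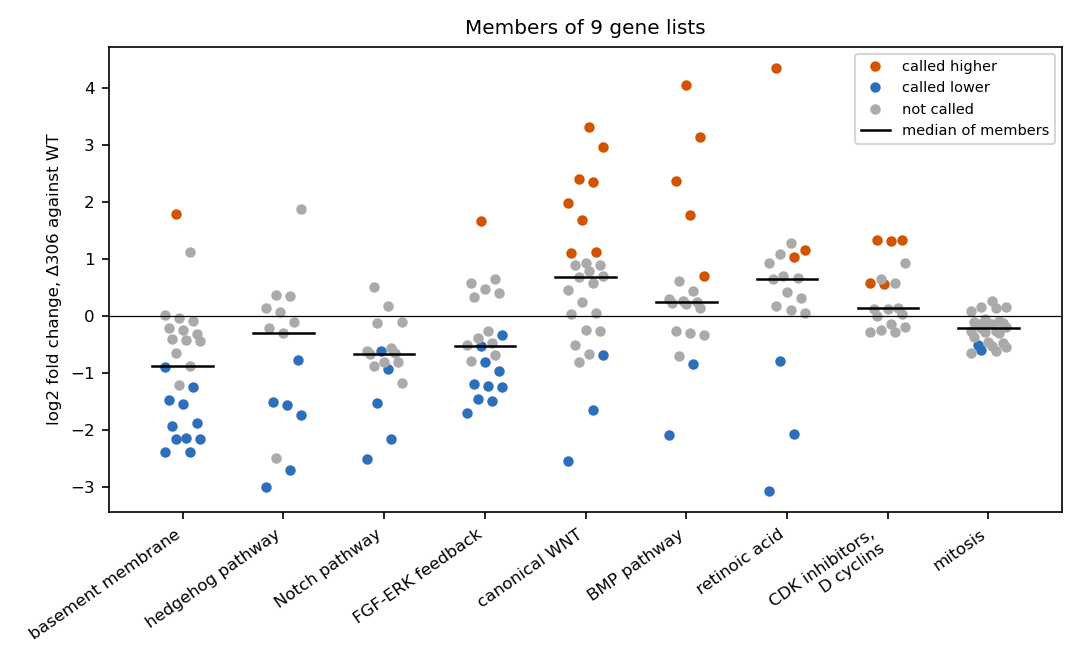
Log2 fold change (Δ306 against WT, vertical axis) of each tested member of 9 gene lists, coloured by call, with the median of the members as a line. Basement membrane, hedgehog, Notch and FGF-ERK members called are mostly below 0, WNT and BMP members called are mostly above 0, and mitosis members cluster near 0.

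Enzymes that make and destroy retinoic acid, a signal that has been linked to the start of meiosis in fetal ovaries, changed in both directions. Of 19 listed genes 17 were tested, with 3 called higher, 3 lower and a median of 0.64. Aldh1a1, which makes retinoic acid, was at 905.5, 987 and 883 CPM in WT and 214, 272 and 175 CPM in Δ306 (-2.07 ± 0.18, adjusted p = 0.00113). Cyp26b1, which degrades it in the XY gonad, was at 379, 380.5 and 290.3 CPM in WT and 55.2, 57.8 and 11.9 CPM in Δ306 (-3.07 ± 0.54, adjusted p = 0.011), lowest in the library labelled Δ306 3. Rara, a receptor, was at 97.4, 87.4 and 92.7 CPM in WT and 54.15, 49.4 and 57.5 CPM in Δ306 (-0.79 ± 0.10, adjusted p = 0.00417). The 3 falls were called in every fit without 1 library. Cyp26a1, another degrading enzyme, was called higher at levels near the detection limit, 0.0555, 0.0435 and 0.0288 CPM in WT and 0.9625, 1.5 and 0.375 CPM in Δ306 (4.35 ± 0.73, adjusted p = 0.00876). With single libraries left out, the higher count was 5 without WT 1 and 1 without WT 2, WT 3, Δ306 1 or Δ306 3.

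Of 18 listed insulin and IGF genes 16 were tested, and 5 fell and 2 rose, with a median of -0.30. Igfbp7, a secreted binding protein, was at 148, 142 and 129.5 CPM in WT and 22.4, 21.3 and 14.5 CPM in Δ306 (-2.85 ± 0.18, adjusted p = 0.000603), and every Δ306 library was below the lowest WT library. The lower count was 2 without WT 2, 3 without Δ306 2 and 2 without Δ306 3 or both WT 1 and Δ306 3, and the higher count was 0 without WT 2, WT 3 or Δ306 3 and 1 without Δ306 1 or Δ306 2.

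Most genes of steroid production fell. Of 23 listed genes of steroid hormone synthesis and breakdown 19 were tested, and 13 fell and 2 rose, with a median of -2.23, and 11 of the falls were called in every fit without 1 library. Star, which brings cholesterol into mitochondria, was at 278, 181 and 227 CPM in WT and 10.1, 17.3 and 10.8 CPM in Δ306 (-4.16 ± 0.27, adjusted p = 0.000603). Fdxr, the reductase that supplies electrons to mitochondrial steroid enzymes, was at 284.5, 249 and 206.5 CPM in WT and 59.9, 80.6 and 64.0 CPM in Δ306 (-1.855 ± 0.17, adjusted p = 0.00122), and its partner ferredoxin, Fdx1, fell (-1.78 ± 0.22, adjusted p = 0.00338). Hsd11b2, which inactivates glucocorticoid, was at 190.5, 203 and 172 CPM in WT and 41.9, 36.03 and 17.3 CPM in Δ306 (-2.57 ± 0.31, adjusted p = 0.00316). In none of these genes did the groups overlap. Akr1c14, a hydroxysteroid dehydrogenase, rose, at 2.92, 3.76 and 4.96 CPM in WT and 19, 20.2 and 37.35 CPM in Δ306 (2.72 ± 0.33, adjusted p = 0.00343). Of the rises, 1 was called without WT 2, Δ306 2, Δ306 3 or both WT 1 and Δ306 3.

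Of 26 genes of cholesterol synthesis and uptake, all tested, 8 fell, with a median of -0.35. Scarb1, the receptor for high-density lipoprotein, was at 415.5, 252 and 306.2 CPM in WT and 107, 108.5 and 86.8 CPM in Δ306 (-1.69 ± 0.20, adjusted p = 0.00311), and was called in every fit without 1 library. Hmgcs1, an early enzyme of synthesis, was at 294.5, 261 and 363 CPM in WT and 271, 260.5 and 272 CPM in Δ306 and was not called (-0.19 ± 0.14, adjusted p = 0.353). The lower count was 4 without WT 3, 3 without Δ306 3 and 2 without Δ306 2 or both WT 1 and Δ306 3.

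Of 24 listed glutathione and redox genes 23 were tested, and 7 fell and 3 rose, with a median of -0.03. Gpx3, a secreted glutathione peroxidase, was at 68.8, 77.4 and 80.4 CPM in WT and 31.7, 24.1 and 27.3 CPM in Δ306 (-1.45 ± 0.13, adjusted p = 0.00136). Gstm1, a glutathione transferase, was at 456, 521 and 516 CPM in WT and 196, 213 and 122 CPM in Δ306 (-1.49 ± 0.21, adjusted p = 0.00556), and Gstm6 fell (-1.68 ± 0.16, adjusted p = 0.00148). The Gstm genes are close copies, so the split of reads between them is uncertain. The higher count was 1 without WT 2 or without both WT 1 and Δ306 3. Of 26 genes of fatty acid synthesis and oxidation, all tested, 9 fell and 2 rose, with a median of -0.24. Elovl6, which lengthens fatty acids, was at 108, 108 and 114 CPM in WT and 71.9, 70.5 and 59.15 CPM in Δ306 (-0.71 ± 0.11, adjusted p = 0.00653). Its lower count was 5 without Δ306 2 or both WT 1 and Δ306 3 and 3 without Δ306 3. Its higher count was 4 without WT 1, 0 without WT 2 or both WT 1 and Δ306 3, and 1 without any other library.

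Several inhibitors of the cell cycle rose, while few genes of replication and division were called. Of 18 genes for inhibitors of cyclin-dependent kinases and D cyclins, all tested, 5 rose, with a median of 0.14. Cdkn1c, which encodes the inhibitor p57, was at 285, 199 and 213 CPM in WT and 631, 551 and 564 CPM in Δ306 (1.33 ± 0.16, adjusted p = 0.00336). Cdkn1b, which encodes p27, was at 66.1, 63.8 and 63.9 CPM in WT and 129, 154.5 and 205 CPM in Δ306 (1.33 ± 0.17, adjusted p = 0.00388). Each Δ306 library was above each WT library in both, and both were called in every fit without 1 library. Cdkn1a, which encodes p21, was at 14.05, 14.3 and 19.4 CPM in WT and 28.9, 33.3 and 58.0 CPM in Δ306 (1.33 ± 0.28, adjusted p = 0.0198), a call lost without WT 2. Of the rises, 2 were called without WT 2 or both WT 1 and Δ306 3 and 3 without WT 3 or Δ306 3, and 1 member was called lower without Δ306 1.

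Of 28 S phase genes, all tested, 2 rose, with a median of 0.03. Ccne2, the cyclin E2 gene that drives entry into S phase, was at 15.6, 19.7 and 19.8 CPM in WT and 44.3, 39.9 and 35.4 CPM in Δ306 (1.12 ± 0.15, adjusted p = 0.00439), and the higher count was 1 without WT 3, Δ306 1, Δ306 2 or Δ306 3. In the other direction, 6 members were called lower without WT 1 and 2 without Δ306 1. Of 27 mitosis genes, all tested, 2 fell, with a median of -0.20. This count depended on WT 1: it was 15 without WT 1, 10 without both WT 1 and Δ306 3, and 0 without WT 2, WT 3, Δ306 2 or Δ306 3. The summed level of the mitosis list was 3675 CPM in WT 1, against 5416 and 5314 CPM in WT 2 and 3 and 4171, 4021 and 3758 CPM in Δ306. WT 1 is the library low in germ-cell genes, and the part of that in the S phase and mitosis counts was not tested.

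Genes of the Iroquois family of homeobox factors rose. Of 6 listed Iroquois genes 5 were tested, and 4 rose, with a median of 2.25. Irx3 was at 5.47, 2.72 and 3.57 CPM in WT and 88.1, 106 and 186 CPM in Δ306 (5.02 ± 0.39, adjusted p = 0.000864). Irx5, its neighbour in the same cluster, was at 1.03, 0.783 and 1.04 CPM in WT and 10.9, 11.6 and 21.5 CPM in Δ306 (3.95 ± 0.34, adjusted p = 0.00113). Both genes, known from ovarian supporting cells, were called in every fit without 1 library and did not overlap between the groups. The count was 2 without WT 1, WT 2, Δ306 1, Δ306 3 or both WT 1 and Δ306 3. Irx3 and Irx5 are also in a list of ovarian supporting-cell genes. That list shares Rspo1, Wnt4, Axin2, Lgr5, Lef1, Msx1, Bmp2, Fst, Fgfr2 and Cdkn1b with the lists above, so these lists are not separate. Of its 16 members, all tested, 14 rose, with a median of 1.73, and 11 were called in every fit without 1 library. Of 39 listed HOX genes 32 were tested, with a median of 0.12, and 3 fell, a share near the 9.85% of all genes. Without WT 1, 3 were called higher, and without Δ306 1, 1 was. Hoxd9 was at 149, 144 and 126 CPM in WT and 57.04, 67.2 and 71.2 CPM in Δ306 (-1.10 ± 0.12, adjusted p = 0.0024).

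Of 14 genes of the gonadal surface epithelium and supporting-cell progenitors, all tested, 6 rose and 2 fell, with a median of 0.57. Emx2, a homeobox factor needed for the gonad to form, was at 65.2, 63.9 and 58.5 CPM in WT and 132, 162 and 191 CPM in Δ306 (1.37 ± 0.15, adjusted p = 0.00211). Lhx2, a LIM homeobox factor, was at 0.583, 0.957 and 1.12 CPM in WT and 3.09, 4.78 and 6.67 CPM in Δ306 (2.44 ± 0.40, adjusted p = 0.00906). Upk3b, a surface protein of mesothelium, was at 67.03, 67.98 and 62.1 CPM in WT and 114, 91.0 and 110.5 CPM in Δ306 (0.68 ± 0.11, adjusted p = 0.00984). Nr5a1, the nuclear receptor SF1 that drives steroid genes, was at 423, 434 and 389 CPM in WT and 194.5, 215 and 181 CPM in Δ306 (-1.077 ± 0.11, adjusted p = 0.00188). These 4 calls held in every fit without 1 library, with no overlap of the groups, so members of this list changed in opposite directions. The lower count was 1 without WT 2, Δ306 3 or both WT 1 and Δ306 3.

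Some guidance genes fell. Of 30 ephrin, semaphorin and Robo genes, all tested, 6 fell and 3 rose, with a median of -0.35. The rises are a share near the 8.98% of all genes. Robo2, a receptor for Slit proteins, was at 296, 304 and 259 CPM in WT and 63.6, 50.5 and 34.5 CPM in Δ306 (-2.53 ± 0.22, adjusted p = 0.00113). Robo1, its relative, was at 257, 261 and 199 CPM in WT and 73.9, 53.9 and 45.85 CPM in Δ306 (-2.05 ± 0.20, adjusted p = 0.00162). Sema3a, a secreted semaphorin, was at 35.04, 29.9 and 29.9 CPM in WT and 75.7, 58.8 and 67.6 CPM in Δ306 (1.09 ± 0.13, adjusted p = 0.0033). All 3 were called in every fit without 1 library, the Robo genes with every Δ306 library below WT and Sema3a with every Δ306 library above it. The lower count was 3 without WT 2, Δ306 2 or Δ306 3 and 2 without both WT 1 and Δ306 3, and the higher count was 1 without WT 2, WT 3, Δ306 2 or Δ306 3. Of 30 listed cell junction genes 28 were tested, and 3 fell and 1 rose, shares near or under those of all genes. One of the 3 was Gja1, connexin 43 of gap junctions, at 318, 249 and 254 CPM in WT and 94.9, 87.0 and 98.7 CPM in Δ306 (-1.55 ± 0.13, adjusted p = 0.000998). The lower count at junctions was 5 without WT 1, Δ306 1 or both WT 1 and Δ306 3 and 1 without WT 2, and the higher count was 2 without WT 1.

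Receptors and transporters for small messengers gave some of the largest changes. Of 24 listed genes of monoamines and other neurotransmitters 18 were tested, and 4 rose and 3 fell, with a median of 0.38. Chrm4, a muscarinic acetylcholine receptor, was at 0.611, 0.652 and 0.519 CPM in WT and 32.6, 29.2 and 67.6 CPM in Δ306 (6.17 ± 0.41, adjusted p = 0.000603). Slc6a4, the serotonin transporter, was at 20.6, 16.9 and 18.6 CPM in WT and 2.63, 2.13 and 2.835 CPM in Δ306 (-2.89 ± 0.19, adjusted p = 0.000603). Chrm3, another muscarinic receptor, was at 3.804, 2.63 and 4.47 CPM in WT and 0.8105, 0.593 and 0.792 CPM in Δ306 (-2.31 ± 0.33, adjusted p = 0.00577). These 3 were called in every fit without 1 library, and the higher count of the list was 2 without WT 2 or WT 3. Of 92 listed potassium channel genes 70 were tested, and 11 rose and 7 fell, with a median of -0.04. The falls are a share near the 9.85% of all genes. Kcnip1, a subunit that tunes A-type channels, was at 1.22, 1.70 and 1.47 CPM in WT and 14.3, 17.1 and 17.9 CPM in Δ306 (3.48 ± 0.22, adjusted p = 0.000603). Kcnh1, a voltage-gated channel, was at 136, 114 and 99.5 CPM in WT and 30.75, 24.8 and 22.9 CPM in Δ306 (-2.16 ± 0.17, adjusted p = 0.000808). The higher count was 5 without WT 2 and 7 without WT 3, Δ306 2 or Δ306 3, and the lower count was 4 without WT 2 or Δ306 2.

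Outside these lists, the largest rises by log2 fold change with a mean of at least 1 CPM included Scrt2, a Snail-related repressor, at 0.0278, 0.261 and 0.317 CPM in WT and 12.3, 17.5 and 22.8 CPM in Δ306 (6.40 ± 0.61, adjusted p = 0.00142). Phlda2, an imprinted gene known from placental growth, was at 0.0833, 0.348 and 0.288 CPM in WT and 6.13, 16.7 and 33.5 CPM in Δ306 (6.245 ± 0.79, adjusted p = 0.00368). Il13ra2, a decoy receptor for interleukin 13, was at 0.0833, 0.109 and 0.202 CPM in WT and 6.18, 8.06 and 9.71 CPM in Δ306 (5.90 ± 0.41, adjusted p = 0.00064). In these 3 genes every WT library was under 1 CPM. The genes of this and the next paragraph were picked among called genes with no overlap of the groups. Their separation therefore follows from the choice. Among the largest rises in CPM was Podxl, a sialomucin of surface and podocyte epithelia, at 238, 218 and 191 CPM in WT and 768, 681.5 and 842 CPM in Δ306 (1.82 ± 0.14, adjusted p = 0.000808).

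Among the largest falls, Crhr1, a receptor for corticotropin-releasing hormone, was at 28.6, 17.6 and 19.2 CPM in WT and 0.861, 1.081 and 0 CPM in Δ306 (-5.05 ± 0.81, adjusted p = 0.00792). Oxtr, the oxytocin receptor, was at 52.2, 32.6 and 36.8 CPM in WT and 1.57, 2.23 and 1 CPM in Δ306 (-4.65 ± 0.33, adjusted p = 0.00074). Cbln1, a secreted cerebellin, was at 236, 284 and 249.6 CPM in WT and 9.57, 14.9 and 5.92 CPM in Δ306 (-4.655 ± 0.33, adjusted p = 0.000704). Mal, a membrane protein of apical transport and myelin, was at 49.0, 33.9 and 34.85 CPM in WT and 2.08, 1.67 and 1.13 CPM in Δ306 (-4.60 ± 0.28, adjusted p = 0.000603). Every Δ306 library lay under the lowest WT library in these genes, as the choice required. All 8 genes of this and the preceding paragraph were called in every fit without 1 library.

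Genes of the translation and respiratory machinery lay higher. Of 80 listed ribosomal protein genes 79 were tested, all 79 had a log2 fold change above 0, and 43 rose, with a median of 0.68. Rpl39 was at 121, 172 and 168 CPM in WT and 272, 364 and 378 CPM in Δ306 (1.14 ± 0.18, adjusted p = 0.0085). Ribosomal protein genes have many processed copies in the genome, so the reads of any one are uncertain. The count was 5 without WT 2, 16 without WT 3, 4 without Δ306 2, 4 without Δ306 3, and 5 without both WT 1 and Δ306 3, and only 4 members were called in every fit without 1 library. The summed level was 37800.0 to 49140.0 CPM in WT and 54950.0 to 77540.0 CPM in Δ306. Of 88 listed nuclear genes of the respiratory chain 84 were tested, and 38 rose, with a median of 0.56. Cox7b, a subunit of cytochrome c oxidase, was at 51.3, 66.2 and 66.95 CPM in WT and 96.85, 122 and 119.8 CPM in Δ306 (0.88 ± 0.15, adjusted p = 0.00942). That count was 9 without WT 2, 14 without WT 3, 6 without Δ306 2 or Δ306 3 and 3 without both WT 1 and Δ306 3. Of the 13 genes encoded in mitochondrial DNA 7 rose, with a median of 1.47, and the count was 4 without WT 2, WT 3 or Δ306 2, 1 without Δ306 3 and 2 without both WT 1 and Δ306 3.

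These families hold short genes, and the log2 fold change moved with the total exon length of a gene over all protein-coding genes. In the decile with the shortest total (72 to 1727 bases) the median was 0.34, with 262 called higher and 79 lower. In the decile with the longest (9806 to 123179 bases) it was -0.07, with 120 called higher and 184 lower. Without ribosomal protein genes the shortest decile had a median of 0.32 over 1486 genes. Long intergenic RNAs, 634 genes, had a median of 0.50 and antisense RNAs, 579 genes, one of 0.49. The part of length in the ribosomal and respiratory values was not tested. With all libraries thinned to the depth of the smallest, 45 ribosomal protein and 36 respiratory chain genes were called higher, close to the 43 and 38 at full depth. At the other end, protocadherins, which are adhesion proteins encoded in long exons, lay lower: of 67 listed genes 53 were tested, 50 were below 0 and 8 fell, with a median of -0.73. Pcdh8 was at 17.2, 18.5 and 15.97 CPM in WT and 1.01, 1.395 and 1 CPM in Δ306 (-3.91 ± 0.22, adjusted p = 0.000603) and Pcdh9 at 19.8, 12.2 and 12.4 CPM in WT and 4.41, 2.69 and 3.835 CPM in Δ306 (-2.025 ± 0.29, adjusted p = 0.00556), both called in every fit without 1 library. Members of the gamma cluster share exons, so their split is uncertain. The protocadherin count was 5 without WT 1, 2 without WT 2, 4 without WT 3, 14 without Δ306 1 and 2 without Δ306 2, Δ306 3 or both WT 1 and Δ306 3.

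**Figure D5:**
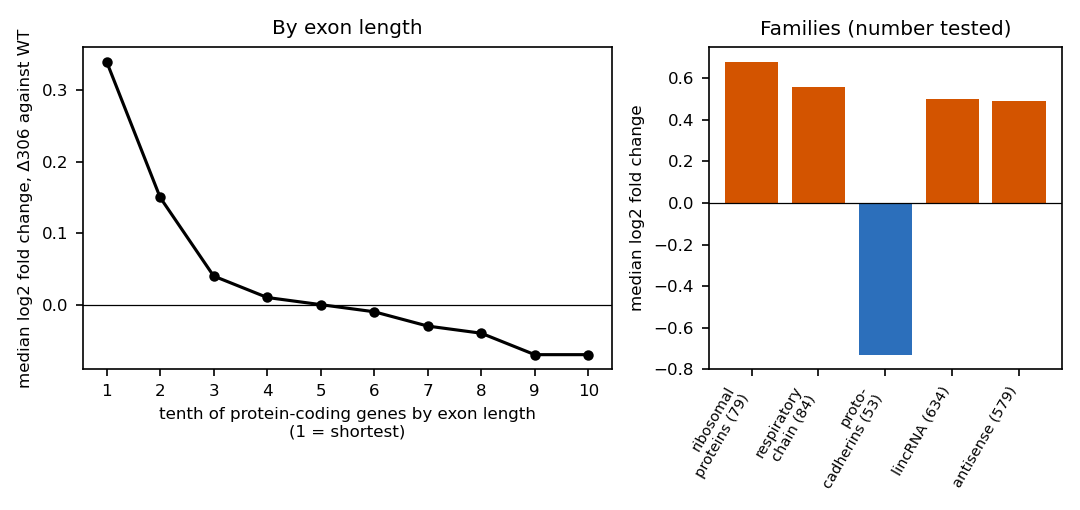
Left, median log2 fold change (Δ306 against WT) of protein-coding genes in deciles by total exon length, from 0.34 in the shortest to -0.07 in the longest. Right, median log2 fold change of ribosomal protein, respiratory chain and protocadherin genes and of long intergenic and antisense RNAs, with the number tested, bars starting at 0.

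Meiotic genes were higher in Δ306. Of 24 listed genes 22 were tested, all 22 were above 0 and 8 rose, with a median of 1.91. Rec8, the cohesin subunit of meiosis, was at 3.14, 4.002 and 4.87 CPM in WT and 59.5, 82.0 and 131 CPM in Δ306 (4.51 ± 0.34, adjusted p = 0.000808), called in every fit without 1 library. Sycp3, of the synaptonemal complex, was at 0.583, 2.22 and 3.315 CPM in WT and 6.585, 14.9 and 19.2 CPM in Δ306 (2.73 ± 0.64, adjusted p = 0.028), a call lost without WT 2, Δ306 2 or Δ306 3. The count was 2 without WT 2, 5 without WT 3 and 3 without Δ306 2, Δ306 3 or both WT 1 and Δ306 3. Of 14 genes of germ cells of either sex, 0 were called by edgeR or by DESeq2 and 0 had an unadjusted p under 0.05. Their median was 0.70, and their sum, given above, was lowest in WT 1, without which 1 member was called higher. Ddx4, a helicase of all germ cells at this stage, was at 4.72, 90.04 and 151 CPM in WT and 96.1, 147 and 159 CPM in Δ306 and overlapped (0.71 ± 0.91, adjusted p = 0.614). Of 13 listed male germ-cell genes 11 were tested, with a median of -0.67. By edgeR 0 were called, 2 lower members had an unadjusted p under 0.05, DESeq2 called 1 lower, and by edgeR 6 were called lower without WT 1, 1 without Δ306 1 and 3 without both WT 1 and Δ306 3.

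Genes near Fgf9 on chromosome 14 were read for changes beside the deleted locus. Of 24 listed neighbours 22 were tested, and 5 rose and 1 fell, with a median of 0.28. Tnfrsf19, described above, lies 2.85 Mb from Fgf9 (60963875 to 61046490, minus strand). It was called in every fit without 1 library, and the higher count was 2 without WT 2, WT 3, Δ306 2 or Δ306 3 and 3 without both WT 1 and Δ306 3. The lower call was lost without WT 2, WT 3, Δ306 1 or Δ306 2, and 2 were called lower without both WT 1 and Δ306 3. Over all tested genes of chromosome 14, 17.8% were called, against 18.8% of all genes.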

How the data were processed

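Poly(A) RNA of 3 WT and 3 Fgf9 Δ306 XY gonad samples was analysed from raw counts per gene. Per the submitters' processing notes, which name tools with no role or order, STAR 2.7.10a, Subread with featureCounts, DESeq2 and the build mm10 were used, and the authors deposited whole-number counts without normalization. The mutant columns are named for Fgf9 only and were taken as Δ306 from the stated design of the series. The authors' deposited table of this comparison gives a mean count as signal, a log2 fold change with its error, a test score and a p-value with its adjusted form, per the file headers. Of 18840 genes in the authors' deposited table, 4279 had an adjusted p under 0.05. All per-sample columns of the count table were used.

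Symbols came from GENCODE M21 on GRCm38 (mm10) for 31011 identifiers, and 42 kept their identifiers. The test was edgeR's (edgeR 4.0.16, R 4.3.3), with filterByExpr by group, TMM, glmQLFit and glmQLFTest with 4 residual degrees of freedom, and Benjamini-Hochberg adjustment over 16470 genes. The standard error is the unshrunk log2 fold change divided by the square root of F. Totals of 19.2 to 48.5 M counts set the precision, and counting error is part of the fitted spread. The code of the fit was run on simulated counts with few changed genes and independent libraries. That setting differs from these data, so the run does not measure the error rate here.

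The members and lists were chosen with earlier results of these data known. Of all listed symbols 1 was not matched. The text names Fgf9, up to 4 members of each larger list, and further members of lists of up to 30 genes. It also draws on the 12 largest changes in each direction by log2 fold change (mean of at least 1 CPM) and by CPM. Those 12 were taken among called genes with no overlap between the groups. Not every gene that met the rules is described. Genes of the figures that no rule names were chosen after their values were seen. Promoter windows are from RefSeq (GRCm38.p6).

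Alternatives were DESeq2 1.42.0, RLE size factors, no composition factor, no filter on low counts, a stricter threshold, counts thinned to the smallest library, the replicate number as a block, the counts of the table of all deletions, and leaving out each library. Leaving out both libraries that stand apart was added after seeing the data.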

Additional observations from a re-analysis of the deposited data

How the results depend on the processing

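Of 3101 genes called, 863 were called at an adjusted p under 0.01, 1110 to 3683 without 1 library, and 1422 without both WT 1 and Δ306 3. DESeq2 called 4291 genes, and no composition factor gave 1991 higher and 1292 lower. Fgf9 stayed lower and called under every alternative, with log2 fold changes of -2.0 to -1.79. With the replicate number as a block 3690 genes were called, 1856 higher and 1834 lower. The deviations of same-numbered libraries from their group means correlated at 0.344, 0.314 and 0.0554, and those of differently numbered libraries at -0.326 to 0.205. Of the 6 libraries 5 correlated best with their own number. The labels state no litter or date that would pair the samples, so the main fit left the numbers out. Whether they pair the samples was not tested. For the 135 genes named beside Fgf9, the alternatives left 1932 values on their side of the threshold and reversed 0. A call was lost at 64 values and gained at 28. This tally includes the stricter threshold, which can only take calls away. DESeq2 called 10 endothelial, 10 Notch, 19 protocadherin, 12 mitochondrially encoded and 14 interstitial matrix genes in the directions given above. No composition factor raised the called S phase members from 2 to 5. The cause of these differences was not tested. With 3 libraries a group, genes at low counts and small changes are the least certain.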

Other observations

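Hypoxia-response genes were read at higher levels for some members only. Of 18 members, all tested, 5 rose and 1 fell, with a median of 0.08. Adm, the peptide adrenomedullin, was at 0.972, 1.28 and 1.095 CPM in WT and 14.7, 15.2 and 16.55 CPM in Δ306 (3.79 ± 0.20, adjusted p = 0.000603). Kdm3a, a histone demethylase induced by low oxygen, was at 127, 126 and 119 CPM in WT and 192, 209.5 and 263 CPM in Δ306 (0.84 ± 0.13, adjusted p = 0.00777). Both genes had every Δ306 library above every WT library and were called in every fit without 1 library, while Slc2a1, the glucose transporter of the response, overlapped and was not called (-0.15 ± 0.24, adjusted p = 0.693). The higher count was 3 without WT 2, Δ306 2 or Δ306 3, and the lower count was 2 without WT 1 or Δ306 1 and 0 without any other single library or without both WT 1 and Δ306 3.

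Of 16 steroid receptor genes, all tested, 5 fell and 2 rose, with a median of -0.22. Esr2, the oestrogen receptor beta of supporting cells, was at 6.44, 5.59 and 3.60 CPM in WT and 1.57, 1.22 and 1.29 CPM in Δ306 (-1.94 ± 0.31, adjusted p = 0.00801; not called without both WT 1 and Δ306 3, adjusted p = 0.0534), and every Δ306 library was below every WT library. The lower count was 3 without WT 2, Δ306 2 or both WT 1 and Δ306 3, and the higher count was 1 without any single library but WT 1 and without both WT 1 and Δ306 3. Ngfr, a neurotrophin receptor in the nerve and glia list, was at 257, 257 and 223 CPM in WT and 59.5, 67.8 and 90.2 CPM in Δ306 (-1.76 ± 0.17, adjusted p = 0.00148), with the groups apart. Of 20 listed nerve and glia genes 17 were tested, and 2 fell, Ngfr among them, and 1 rose. The falls are a share near the 9.85% of all genes, and the rise is a share under 8.98%. The median of the list was 0.55, and 11 members had a log2 fold change above 0. The higher call of that list was lost without any single library but WT 1, and the lower count was 1 without WT 1, WT 2, WT 3 or Δ306 2.

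Of 16 listed genes of mesonephric ducts and tubules, 15 were tested and 3 rose, with a median of 0.67. Calb1, a calcium-binding protein, was at 1.555, 0.913 and 0.317 CPM in WT and 10.2, 17.3 and 25.4 CPM in Δ306 (4.24 ± 0.59, adjusted p = 0.00524) and Pax8, a duct transcription factor, was at 7.91, 4.78 and 6.34 CPM in WT and 15.5, 16.3 and 18.3 CPM in Δ306 (1.40 ± 0.22, adjusted p = 0.00724). Emx2, described above, is the remaining member that rose. Both Emx2 and Pax8 are also in the list of surface epithelium and supporting-cell progenitors, so these rises are not particular to ducts and tubules. The gonads were separated from the mesonephros before RNA extraction. The count was 6 without WT 1, the library low in germ-cell genes, and 5 without both WT 1 and Δ306 3, and in each of these fits 1 member was called lower.

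At an imprinted locus 1 library departed from its group. H19, a non-coding RNA of the maternal chromosome, was at 2408, 17.8 and 2914 CPM in WT and 39.4, 46.15 and 47.0 CPM in Δ306, so WT 2 lay with the Δ306 libraries and the groups overlapped (-5.33 ± 1.46, adjusted p = 0.044). Its call was lost without any 1 of WT 1, WT 3 and the Δ306 libraries and without both WT 1 and Δ306 3, and held without WT 2.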
